A study of Mus musculus with 4 samples.

Results

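The Hoxc cluster is a row of 9 homeobox genes on mouse chromosome 15, running from Hoxc13 to Hoxc4, and its CTCF-bound regions were followed in 4 embryonic tissues. CTCF regions were taken when they overlapped chromosome 15 102871131–103086856 of mm10, which is the span from Hoxc13 to Hoxc4 with 50 kb on each side. This window held 28 of the 121759 union regions of the genome, a union region being the stretch covered by overlapping peaks of any of the 4 tissues. The study concerns CTCF sites at another Hox cluster, Hoxd, and profiled CTCF by chromatin immunoprecipitation and sequencing with an antibody from Active Motif. All embryos were wild type on the B6CBAF1 strain. Posterior trunk was labelled E10 (embryonic day), was pooled by the protocol from around 30 embryos of E9.75 to E10, and held tailbud, presomitic mesoderm and a few somites. Brain was the telencephalon of 6 pooled E12.5 embryos. Both forelimb parts, distal and proximal, were E12.5 as well, and their titles mark them as data that were analysed again. Each tissue had 1 library, so tissues could not be compared against a spread between replicates, and no p-value between them is given. Trunk differs from the others in stage as well as tissue, and these cannot be told apart. The forelimb lists also differ from the others in being marked as analysed again, which cannot be told apart from tissue either. The lists hold no expression values, so neither the tissue labels nor the activity of the Hoxc genes could be checked here.

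Hox genes encode transcription factors that give cells their position along the body axis, and in the trunk they are switched on in the order in which they lie in the cluster, with the genes near Hoxc4 acting further forward than those near Hoxc13. The telencephalon lies in front of the region where Hox genes act. CTCF is a zinc-finger protein that stops or anchors chromatin loops, and at Hox clusters its sites are known to separate active from silent stretches of the same cluster.

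The lists were uneven in depth and length, which bears on every absence described here. The trunk list had 106662 peaks and the brain list 74127, while the distal and proximal forelimb lists had 64793 and 63873. With the depth of distal forelimb set to 1, proximal forelimb stood at 1.08, brain at 2.02 and trunk at 2.21. Each peak carries the fold of its pileup (the reads covering the summit) over the local background, as the authors' caller gave it. Peaks of a list were also ranked by p and given a percentile, 100 being the strongest. Intervals on pileups are exact Poisson 95% intervals and cover counting error only.

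Posterior trunk had a CTCF peak in 27 of the 28 regions of the Hoxc window, brain in 7, distal forelimb in 5 and proximal forelimb in 7. Over all union regions of the genome the shares called were 87.5% for trunk, 60.5% for brain, 52.8% for distal forelimb and 52% for proximal forelimb, against 96.4%, 25.0%, 17.9% and 25.0% in the window. Thus 20 regions of the window, or 71.4%, were called in trunk and in no other list, where the share over the genome was 28.4%. Regions called in all tissues numbered 5, or 17.9%, against 42.4%. The remaining 3 regions were each of a different kind. A region between Hoxc12 and Hoxc11 was shared by trunk and brain, a pattern of 5.46% of all regions. A region in Hoxc6 was shared by trunk, brain and proximal forelimb, a pattern of 2.85%. A region in Hoxc13 was called in proximal forelimb alone, a pattern of 2.23%.

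**Figure D1:**
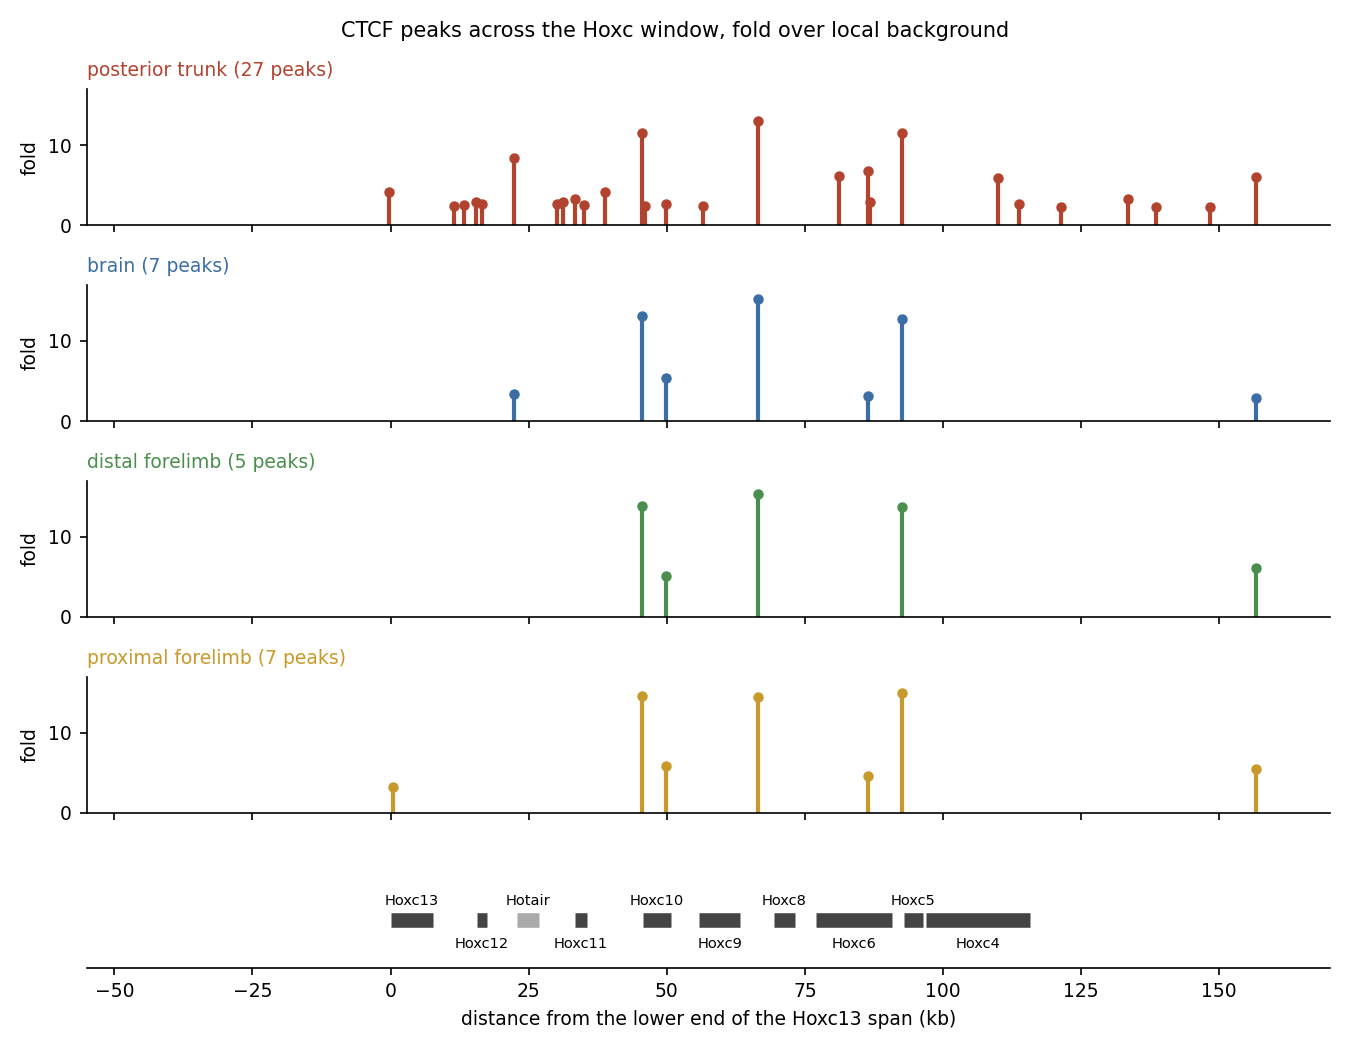
The authors' fold at each CTCF summit (vertical axes, linear) against distance from the lower end of the Hoxc13 span in kb, with 1 panel per tissue and the gene spans below, Hotair in light grey. Trunk shows 27 peaks spread over the cluster, while brain, distal forelimb and proximal forelimb show 7, 5 and 7, mostly at the same few places.

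Regions called in all tissues began at Hoxc10. They were 102966335–102966771, which ended 24 bases before the span of Hoxc10; 102970712–102971066 inside Hoxc10; 102987356–102987931 between Hoxc9 and Hoxc8; 103013314–103013961, which ended 46 bases before the span of Hoxc5; and 103077621–103078002, which lay 40764 bases beyond the span of Hoxc4. Their trunk summits were 4.33, 16.7, 26.1 and 64.1 kb apart in that order. Hoxc13, Hoxc12 and Hoxc11, the genes of the most posterior positions, had no such region: the nearest lay 37520, 27725 and 9633 bases from their spans. Of the 12 regions before the one at the edge of Hoxc10, 10 were called in trunk only, where the share over the genome was 28.4%. Among trunk regions within 5 percentile points of each of these 10, the share called in trunk only was 29.4% to 76.5%.

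The site at the edge of Hoxc10 was the strongest of the window in trunk by p, and by fold it came after the site between Hoxc9 and Hoxc8. Hoxc10 is a posterior gene that takes part in patterning the lumbar region and the hindlimb. Pileups were 353 reads in trunk (interval 317 to 392), 248 in brain (218 to 281), 173 in distal forelimb (148 to 201) and 160 in proximal forelimb (136 to 187). The folds were 11.5, 13.1, 13.9 and 14.6, and the percentiles 93.4, 85.7, 84.9 and 84.3. Summits of the 4 lists lay within 4 bases of each other, a spread that only 2.95% of regions called in all tissues matched or undercut, the median being 19 bases.

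The site between Hoxc9 and Hoxc8, genes of the thoracic region, was alike in strength. Its pileups were 324 reads in trunk (290 to 361), 265 in brain (234 to 299), 149 in distal forelimb (126 to 175) and 148 in proximal forelimb (125 to 174). The folds were 13.0, 15.2, 15.3 and 14.4, and the percentiles 93.0, 90.6, 82.6 and 82.2. In brain it was the strongest of the window by p.

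The site before Hoxc5, between it and Hoxc6, was the third of these strong sites in trunk. Pileups were 265 reads in trunk (234 to 299), 206 in brain (179 to 236), 131 in distal forelimb (110 to 155) and 145 in proximal forelimb (122 to 171). Folds were 11.5, 12.8, 13.7 and 15.0, and percentiles 84.1, 80.1, 78.0 and 82.3. By fold it came before the other two in proximal forelimb, whereas in the other lists it came after them.

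To compare lists, the local background was taken from each pileup, the rest was divided by relative depth, and the ratio of trunk to another tissue was set against the median ratio of the 51657 regions called in all tissues. For these 3 strong sites the ratio stood between 0.768 and 1.02 times that median. A ratio at least as high as that of trunk over brain at the edge of Hoxc10 was seen at 47.7% of the regions called in all tissues, and one at least as low as that of trunk over proximal forelimb before Hoxc5 at 28.9%. The 3 sites thus sat in the middle of the range for shared CTCF regions.

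The site inside Hoxc10 differed from them: it was the weakest of the 5 in trunk by p and stronger relative to its list in the other tissues. Its pileup was 75 reads in trunk (59.0 to 94.0), 99 in brain (80.5 to 121), 61 in distal forelimb (46.7 to 78.4) and 64 in proximal forelimb (49.3 to 81.7). The trunk fold was 2.58, against 5.34 for brain, 5.08 for distal and 5.89 for proximal forelimb. Among the regions called in all tissues its percentile was 2.44 in trunk and 34.3, 34.6 and 40.6 in brain, distal forelimb and proximal forelimb. Trunk was low, and the other 3 lists were close to each other. After the correction for background and depth, trunk held 21.1 reads, brain 40.3 and each forelimb part 49.8. Relative to the median of shared regions this was 2.40-fold less than brain, 2.46-fold less than distal forelimb and 2.69-fold less than proximal forelimb. Ratios at least as low were found at 0.877%, 0.842% and 0.803% of the regions called in all tissues, in the same order. Without subtraction of the background these shares were 1.82%, 2.26% and 1.92%. All of them use the same trunk count. The reference regions were of all strengths, and a site this low in trunk tends to have a low trunk ratio. These shares therefore do not place the site among regions of its own strength. The local background here was 3.05 times the lowest of the list in trunk, against 2.08, 2.65 and 2.19 times in the other lists, and its part in the difference was not tested.

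The site beyond Hoxc4 was the opposite case for brain. Pileups were 88 reads in trunk (70.6 to 108), 32 in brain (21.9 to 45.2), 44 in distal forelimb (32.0 to 59.1) and 36 in proximal forelimb (25.2 to 49.8). The folds were 6.05, 2.88, 6.15 and 5.41. Brain stood apart, since its pileup was the lowest although its library was about as deep as trunk. Corrected for background and depth, brain held 10.7 reads against 33.6 in trunk, 37.7 in distal forelimb and 27.8 in proximal forelimb. Set against the median of shared regions, brain was 2.77-fold under distal forelimb and 2.24-fold under proximal forelimb, and trunk was 2.51-fold over brain. Ratios at least as extreme were seen at 0.337%, 1.07% and 2.23% of the regions called in all tissues. Among those regions the brain percentile of this site was 2.07. The reference was again not matched for strength, and all of these shares use the same brain count. Between trunk and distal forelimb the ratio was 0.856 times the median.

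**Figure D2:**
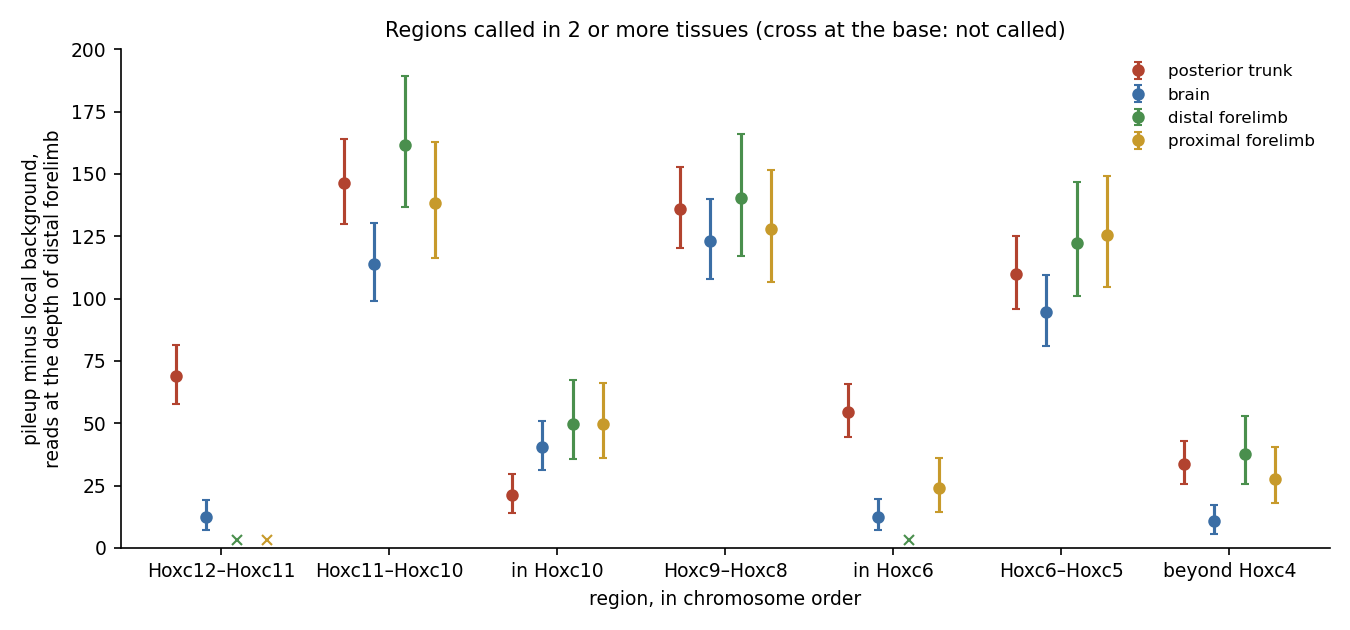
Pileup minus local background, in reads scaled to the depth of distal forelimb (vertical axis, linear), for the 7 regions called in several tissues, in chromosome order; bars are exact Poisson 95% intervals of the pileup and crosses mark lists without a call. The points at Hoxc11–Hoxc10, Hoxc9–Hoxc8 and Hoxc6–Hoxc5 are high in all tissues, trunk is lowest inside Hoxc10, and brain is lowest beyond Hoxc4.

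Between Hoxc12 and Hoxc11, the region 102943256–102943785 was a strong trunk site that was weak in brain and not called in either forelimb part. It ended 276 bases from Hotair, a long non-coding gene that lies between these 2 genes. Its pileup was 172 reads in trunk (147 to 200) and 35 in brain (24.4 to 48.7), with folds of 8.41 and 3.35 and summits 11 bases apart. Corrected for background and depth, trunk held 5.52 times as many reads as brain. The ratio was 4.40 times the median of shared regions, and 0.137% of the regions called in all tissues had one at least as high. That reference leaves out regions lacking a call in any list, as this one does. The share therefore does not place it among regions of its own pattern. Of the trunk regions within 5 percentile points of it, the share called in all tissues was 96.8% and the share called in trunk and brain only was 0.413%. At the same occupancy the −log10 p would be 45.7 in distal forelimb and 49.4 in proximal forelimb, where the weakest peaks called had 3.20 and 3.23.

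Hoxc6 held the other partly shared site. The gene acts at the level of the forelimb and the thorax, and its span contained 3 regions. In 103007289–103007709 the pileup was 140 reads in trunk (118 to 165), 36 in brain (25.2 to 49.8) and 32 in proximal forelimb (21.9 to 45.2), and distal forelimb had no call. Trunk stood above the others, with 54.3 reads after correction against 12.6 in brain and 23.8 in proximal forelimb. Against the median of shared regions trunk was 3.45-fold over brain and 2.00-fold over proximal forelimb, and ratios at least as high were seen at 0.503% and 8.33% of the regions called in all tissues. This region was not called in all tissues itself, so these shares do not place it among regions of its own pattern. At the trunk occupancy, distal forelimb would have a −log10 p of 32.1.

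The strongest trunk-only regions lay in Hoxc6 and Hoxc4, at the end of the cluster that acts further forward. The region 103002124–103002548 in Hoxc6 had a pileup of 113 reads (93.1 to 136) and a percentile of 61.1. The region 103030925–103031288, in the spans of Hoxc4 and of the long non-coding gene Gm30528, had 98 reads (79.6 to 119) and a percentile of 58.3. Most trunk regions of such rank were called elsewhere too: among those within 5 percentile points, 4.67% were trunk-only for the region in Hoxc6 and 7.55% for that in Hoxc4. At the depth of brain their −log10 p would be 47.7 and 40.7, at that of distal forelimb 24.5 and 21.1, and at that of proximal forelimb 26.5 and 22.7, all far above the lowest of those lists.

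A further 2 trunk-only regions had folds over 4. One was 102959695–102960041 between Hoxc11 and Hoxc10, with a fold of 4.18 and 69 reads, where 29.4% of trunk regions of similar rank were trunk-only. The other was 102920626–102920915, 215 bases before Hoxc13, a gene known for its part in hair and nail formation and in the tail, with a fold of 4.13 and 54 reads, where the share was 39.7%. Between this region and the next one of trunk, the only call was the proximal forelimb region 102921525–102921769 in Hoxc13. That region was weak, with 19 reads (11.4 to 29.7), a fold of 3.17 and a percentile of 7.55 of its list. In the 49.5 kb of the window before Hoxc13 and this pair, no list had a peak.

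Most trunk-only regions were weak, and weak trunk regions are mostly trunk-only across the genome. Folds of the 20 ran from 2.23 to 6.13, and 14 were under 3. Their median fold was 2.63, under the 2.93 of the 34525 trunk-only regions of the genome, while their median percentile by p was 24.4, over the 19.9 of those regions. For the region in Hoxc9, 102977663–102977866, which had a fold of 2.40, 80.4% of trunk regions within 5 percentile points were trunk-only, and for 103042303–103042505 beyond Hoxc4, with 2.23, the share was 86.6%. Scaled to the depth of brain, all 20 had an expected −log10 p above the lowest of the brain list. In distal forelimb this held for 17 and in proximal forelimb for 18. These regions were those that passed in trunk, which favours high values, so the expected values lean high. The scaling also used relative depth alone. At the regions called in all tissues, trunk reads after correction exceeded those of the other lists. The median log2 ratio was 0.327 over brain, 0.0596 over distal forelimb and 0.188 over proximal forelimb. None of the expected values given here was adjusted for this, so they lean high for this reason too.

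**Figure D3:**
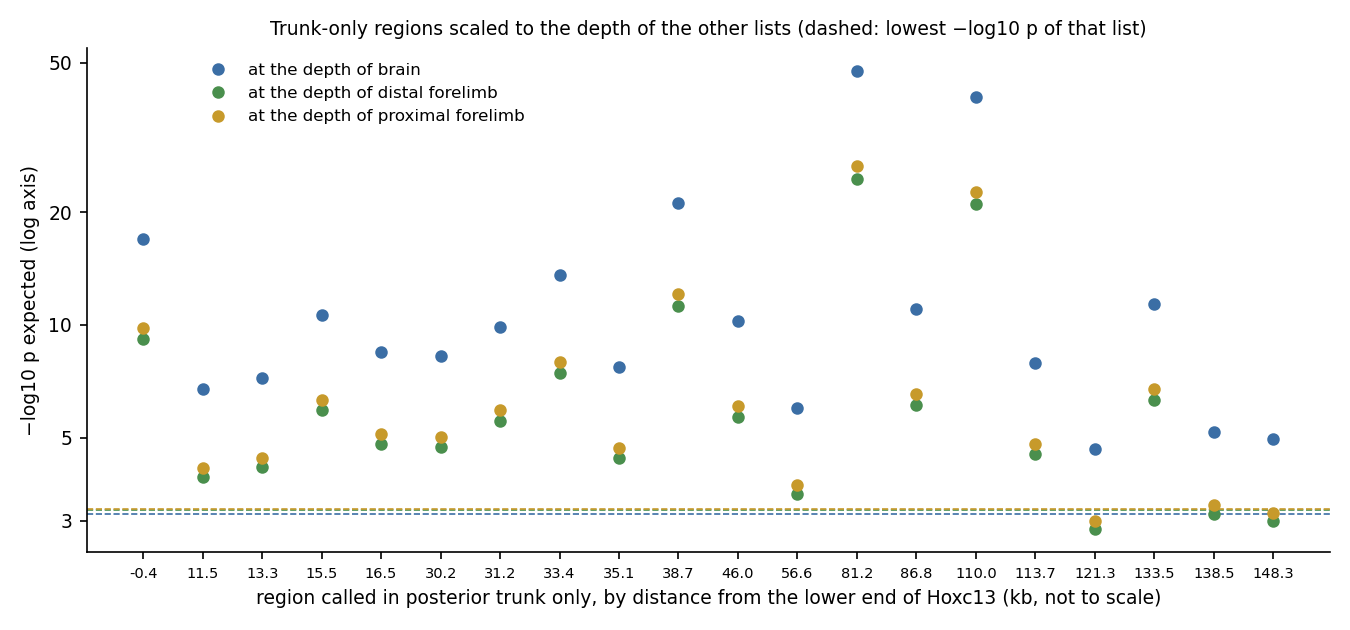
The −log10 p expected for each of the 20 trunk-only regions at the depth of brain, distal forelimb and proximal forelimb (vertical axis, log scale), ordered along the cluster by distance from the lower end of Hoxc13 (kb, not to scale); dashed lines mark the lowest −log10 p in each list. The regions in Hoxc6 and Hoxc4 stand far above the lines, and the 3 lowest points for distal forelimb lie just under them.

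From the span of Hoxc13 to that of Hoxc10 the trunk-only regions had folds of 2.41 to 3.31, apart from the region between Hoxc11 and Hoxc10 at 4.18. Hoxc13 and Hoxc12 were separated by 102932506–102932709, 102934316–102934537 and 102936399–102936821, with folds of 2.43, 2.45 and 2.83, the last ending 4 bases before the span of Hoxc12. Hoxc12 itself held 102937525–102937757, at 2.60. Before Hoxc11 lay 102951192–102951434, at 2.64, and 102952177–102952478, at 2.87. Hoxc11, a gene of the sacral region, held 102956127–102956342, at 2.55, and 102954446–102954708, at 3.31, which reached over the lower end of its span. In Hoxc10 the region 102966973–102967287, at 2.41, lay 0.201 kb from the strong site at the edge of that gene. In Hoxc6 the region 103007797–103008061, at 2.85, lay 0.087 kb from the partly shared site. Pileups of these 10 regions were between 42 and 72 reads.

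The remaining trunk-only regions lay beyond the strong site before Hoxc5. Hoxc4 and Gm30528 shared 103034772–103034985, at a fold of 2.62, and Gm30528 alone held 103042303–103042505, 103054421–103054778, at 3.22, and 103059497–103059707, at 2.32. Between Gm30528 and the shared site beyond Hoxc4 lay 103069312–103069612, at 2.23. All 6 regions between the site before Hoxc5 and the one beyond Hoxc4 were trunk-only, the strong one in Hoxc4 included, where the share over the genome was 28.4%. Among trunk regions within 5 percentile points, the trunk-only share was 7.55% for that strong one and 57.0% to 86.6% for the others. Hoxc5 and Hoxc8 had no region of any list inside their spans.

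Hoxc4 is the 1 gene of the 9 with an entry in the RefSeq promoter table of GRCm38.p6, the assembly of mm10, and its sequence is shown since it lies between 2 trunk-only regions. It covers 103034145–103034444 on the plus strand, 250 bases before to 50 after a start inside the Hoxc4 span. No list had a peak in it: 103030925–103031288 ended 2856 bases before it and 103034772–103034985 began 327 bases after it. Capitals mark the letters GCCCACTGGAGG, which on the opposite strand match a CTCF-like pattern of CC, 3 free letters, AG, 2 free letters and GGC, at 103034322–103034333. That pattern, searched on both strands, occurred in 8.61% of the 32851 promoters of 300 bases in the table. The same pattern with GG in place of AG had 0 matches here and occurred in 9.43% of them.
Hoxc4 promoter: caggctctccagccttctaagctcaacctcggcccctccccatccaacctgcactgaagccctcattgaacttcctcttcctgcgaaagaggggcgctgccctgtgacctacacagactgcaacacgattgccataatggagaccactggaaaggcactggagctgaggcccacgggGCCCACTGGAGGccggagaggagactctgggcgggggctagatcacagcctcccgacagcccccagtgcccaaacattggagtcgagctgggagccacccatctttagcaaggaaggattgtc

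Trunk-only regions, most of them weak, lay at the lower ends of the posterior genes. The Hoxc genes are read toward higher coordinates, so the lower end is where each gene starts, apart from further starts inside a span. Within 1 kb of that end a trunk-only region was found at 5 of the 9 genes, namely Hoxc13, Hoxc12, Hoxc11, Hoxc10 and Hoxc9. Over 21883 protein-coding genes the share was 8.5% at the lower end and 8.62% at the higher end, where starts and ends are mixed because strand is not used. At the higher ends of the Hoxc spans, such regions lay near Hoxc12 and Hoxc11. With any trunk peak, 6 of the 9 lower ends had a region, Hoxc5 being the sixth, against 27.4% of genes. Regions called in all tissues lay within 1 kb of 2 of the 9 lower ends, those of Hoxc10 and Hoxc5, against 16.1% of genes. The start of Hoxc10 was thus not marked in trunk alone, and its trunk-only region lay 0.201 kb from the strong shared site. The 5 genes were 4 with a −log10 q of at least 5 (background 6.63%) and 4 at scaled depth with a −log10 p of at least 5 (4.45%), Hoxc9 being the one lost in both. In lists of equal length only Hoxc13 was left, 1 of 9 against 1.42%. The 1 kb distance was chosen after the values were seen.

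The local background around the shared sites of the cluster was above the median for shared sites of the genome, at levels that many of those sites reach. At the 4 regions called in all tissues from Hoxc10 to Hoxc5 it was 2.38 to 3.19 times the lowest of the list in trunk, 1.78 to 2.11 times in brain, 2.04 to 2.73 times in distal forelimb and 1.90 to 2.19 times in proximal forelimb. Across the genome, medians at the regions called in all tissues were 1.91, 1.60, 1.69 and 1.63, and 29.7%, 40.0%, 36.3% and 38.2% of these regions were at or above the lowest of the 4 sites. At the site beyond Hoxc4 the values were 1.47, 1.22, 1.50 and 1.27, so there trunk was not above distal forelimb. At the 20 trunk-only regions the median was 1.76, against 1.16 over the trunk-only regions of the genome. The background at these positions in the other lists is not given by a peak list, and its part in the trunk-only calls was not tested.

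**Figure D4:**
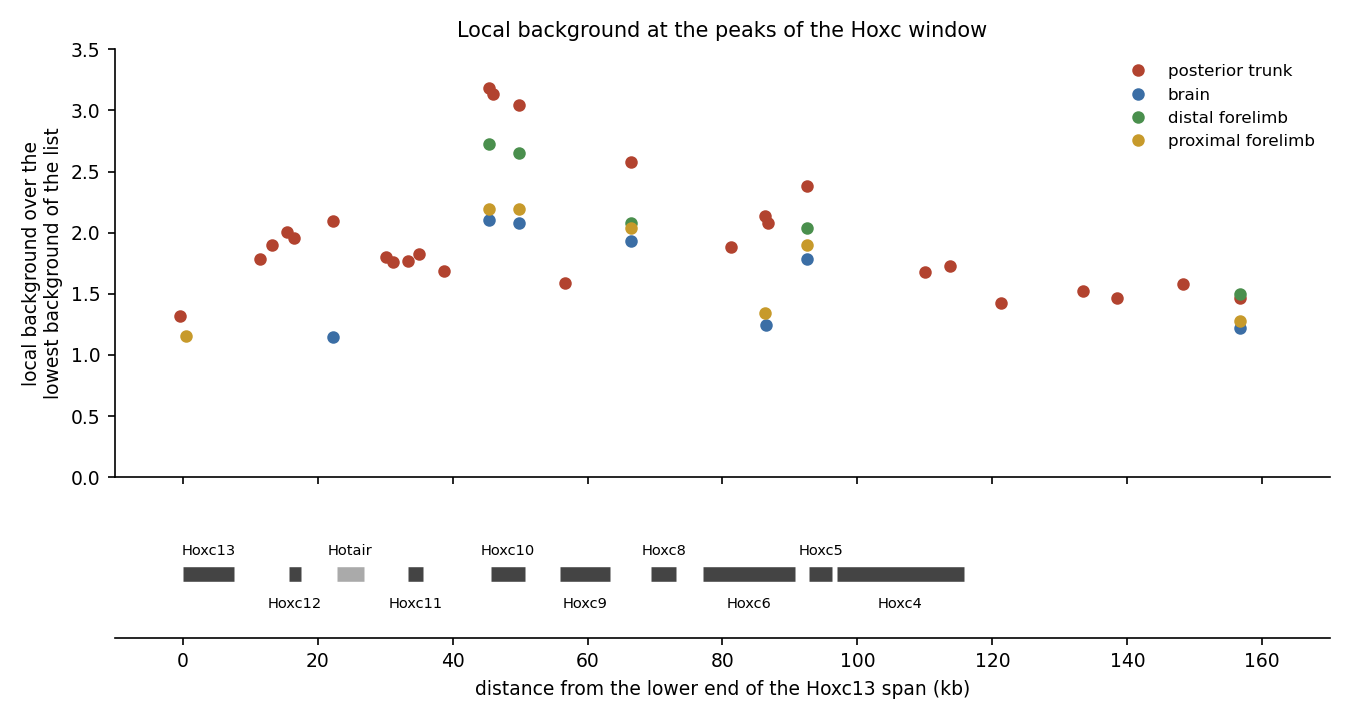
Local background at each peak divided by the lowest background of the same list (vertical axis, linear, no unit) against distance from the lower end of Hoxc13 in kb, with gene spans below. Trunk reaches 3.19 at the edge of Hoxc10. It stays under 2.2 from Hoxc13 to Hoxc11, at the peaks inside Hoxc9, Hoxc6 and Hoxc4, and beyond Hoxc4.

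Beside the windows of Hoxa, Hoxb and Hoxd, drawn with the same 50 kb on each side, the Hoxc window had few shared sites. Regions called in all tissues were 5 in Hoxc, 12 in Hoxa, 17 in Hoxb and 11 in Hoxd, or 2.32, 5.84, 6.21 and 5.59 per 100 kb. Trunk-only regions were 20, 10, 14 and 13, or 71.4%, 32.3%, 41.2% and 52.0% of the regions of each window. With all lists scaled to the depth of distal forelimb and a common −log10 p of at least 5, Hoxc had 10 trunk-only regions of 18, or 55.6%, against 23.1%, 37.9% and 33.3% in Hoxa, Hoxb and Hoxd and 19.6% over the genome. In lists of equal length it had 4 of 12, or 33.3%, against 8.70%, 20.8%, 14.3% and 6.48%. These 4 were the regions in Hoxc6 and Hoxc4, the one between Hoxc11 and Hoxc10 and the one before Hoxc13. The median percentile of the shared sites of Hoxc was 84.1 in trunk, against 83.8 in Hoxa, 81.6 in Hoxb and 81.4 in Hoxd. In brain it was 80.1, against 79.4, 80.2 and 74.2. In distal forelimb it was 78.0, against 70.5, 76.1 and 81.2, and in proximal forelimb 82.2, against 70.3, 80.1 and 75.4. By these medians Hoxc came first in trunk and proximal forelimb and after Hoxb in brain and Hoxd in distal forelimb. The Hoxc medians rest on 5 sites, whose percentiles in trunk ran from 32.0 to 93.4. No test of the differences between clusters was made.

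**Figure D5:**
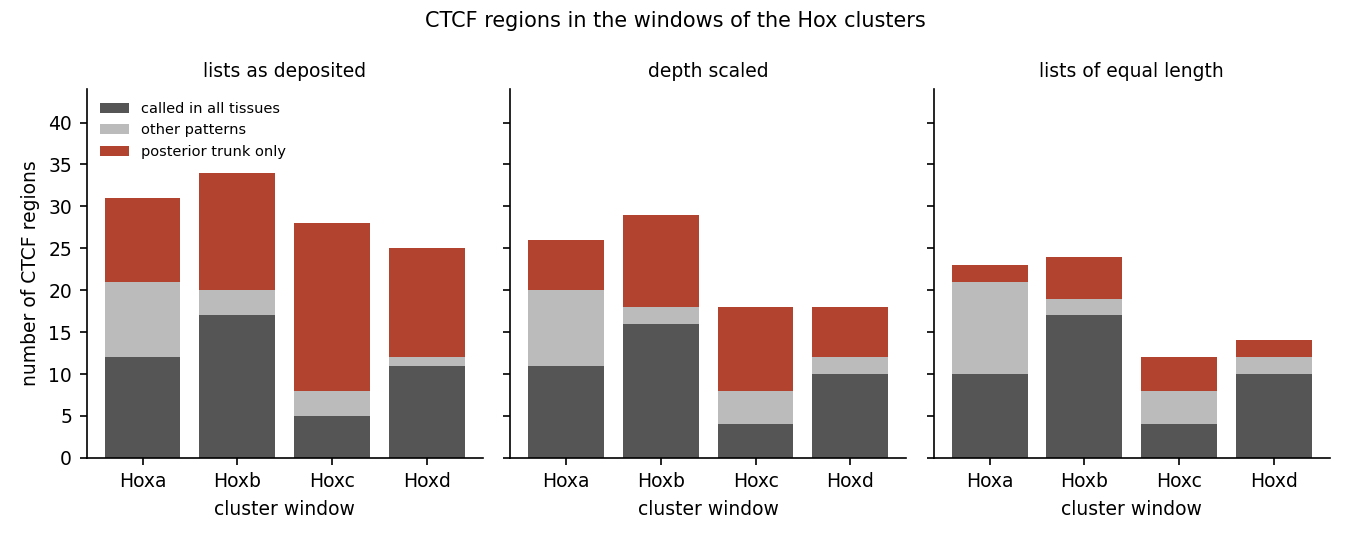
Number of CTCF regions (vertical axis) in the windows of the Hox clusters, split into regions called in all tissues, in posterior trunk only and in other patterns, for the lists as deposited, scaled to equal depth with a −log10 p of at least 5, and limited to equal length. Hoxc has the fewest regions called in all tissues in each panel, at 5, 4 and 4.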

How the data were processed

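CTCF ChIP-seq peak lists of 4 tissues were used, 1 library each, grouped by the tissue in the labels. The submitters' processing notes name build mm10 and MACS2 2.1.1.20160309, SAMtools 1.9, Bowtie2 2.3.5 and cutadapt 1.16. Caller options, and whether an input was used, were not given in the sources used here. In narrowPeak layout the authors deposited rows with a score, a fold ratio over local background, a −log10 p-value, a −log10 q-value and a summit, 1 list per library, with the lowest −log10 q near 1.30. Folds are the authors' values.

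Chromosomes 1 to 19, X and Y were used. Rows with several summits were merged, and peaks sharing at least 1 base were joined into union regions. Whole pileups and backgrounds were solved from fold (pseudocount 1) and p, reproducing each −log10 p to within 0.00034, and checked on simulated data. The lowest background of a list gave relative depth; total reads are unknown. Named items are the 9 Hoxc genes, every region and every other gene of the window. The software was pandas 2.3.3, scipy 1.17.1, numpy 2.4.6 and matplotlib 3.10.9 under Python 3.11.15. Gene spans, without strand, came from RefSeq (GRCm38.p6). Peak sequences were not analysed here. No tests across libraries were run. The alternatives are given in the closing section. The members and lists were chosen with earlier results of these data known.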

Additional observations from a re-analysis of the deposited data

How the results depend on the processing

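Scaled to equal depth with a −log10 p of at least 5, the window held 18 regions, 17 of them called in trunk and 10 in trunk only. In lists of equal length these were 12, 10 and 4. Of the 5 Hoxc genes with a trunk-only region at their lower end, equal length left 1, an alternative added after seeing the data. Leaving out the posterior trunk list, likewise added, left 8 regions. Regions called in all tissues were 4 or 5 in every setting run. The depth and −log10 p setting together dropped the brain call beyond Hoxc4, and equal length dropped the trunk call inside Hoxc10. Without flanks, the site beyond Hoxc4 lay outside the window. Brain, distal forelimb and proximal forelimb counts, and all counts with a −log10 q of at least 5, summits within 200 bases, overlap of 50% of both peaks or no flanks, stayed within 1.5 times. Ordering the shared regions by fold in place of p kept 12 of 20 places. No window row had several summits, so that alternative changed nothing. Without read totals, absence from a list limits only what was called. No paired analysis was possible because there was a single library per tissue.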

Other observations

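The window also held 6 genes that are not Hoxc members, and their distances to the CTCF regions are given as values. Mir196a-2, a microRNA gene between Hoxc10 and Hoxc9 whose product is known to act on Hox messages, had no region in its span, and the nearest, the site inside Hoxc10, lay 2283 bases away. Mir615, in the span of Hoxc5, lay 948 bases from the strong site before that gene. Gm36878, in Hoxc9, was 2610 bases from a trunk-only region, and Gm29905, before Hoxc6, was 3956 bases from one. Gm30528 held 5 regions, all of them trunk-only, and Hotair held none.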
